A study of Mus musculus with 8 samples.

Results

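The genes described here come from a list drawn up for the contractile apparatus of striated muscle and the proteins that feed it with calcium and energy. They were read in RNA from mouse testis, a tissue with no striated muscle of its own. The list names 46 genes, and a place on it does not show that a gene is particular to striated muscle. Members are all probe sets whose only gene symbol in the array annotation is one of these names, and 45 of the 46 genes had at least 1 such probe set. They gave 62 of the 12422 probe sets on the array, a probe set being several short probes read as 1 value for a transcript. Ttn, which encodes the giant spring protein titin, had no probe set among them and was not analysed here. Of the 45 genes, 29 had 1 probe set, 15 had 2 and Ckmt2 had 3. The genes were chosen by role with the group differences of these same arrays known, and some were selected on those differences, so the differences below are descriptions and support nothing about muscle genes as a class.

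Total RNA from testis was hybridised to 8 Affymetrix arrays, 2 for each of 4 groups of house mice named castaneus, domesticus, musculus and ssp in the labels. The study compared testis expression among these mice. Age, housing and treatment, the number of animals behind each RNA and the meaning of ssp are not stated by the labels, and no treatment or engineered allele is named for any group. The labels call the 2 arrays of a group technical replicates, so every SD, standard error and p-value below covers the spread between arrays of a group only, not the spread between animals.

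Values are intensities on the linear scale as deposited. Array medians ran from 151.2 to 182.55 intensity units, and a floor was set at 18.7, the 10th percentile over the arrays, before log2 was taken. Values under the floor are given as deposited and have no order among themselves. Group values are geometric means of 2 arrays, and a fold against a group with both arrays at the floor is written as at least. As a check of the tissue, the 12 probe sets of 9 spermatid genes were bright in sum on all arrays, their summed intensity running from 250305.9 to 398049.6 units with 1 or 2 of the 12 at the floor. In whole-tissue RNA, fewer cells of a type and less RNA per cell cannot be told apart.

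In a striated muscle fibre, thick filaments of myosin pull on thin filaments of actin when calcium binds troponin, which shifts tropomyosin away from the sites that myosin needs. Calcium is released from the sarcoplasmic reticulum through ryanodine receptors and pumped back by a calcium ATPase, while creatine kinases and muscle isoforms of glycolytic and respiratory enzymes renew the ATP. Fast skeletal, slow skeletal and heart muscle use different members of the same families. In testis the contractile cells are the peritubular myoid cells and vessel walls, which are of the smooth muscle kind, and some genes named for muscle are also read in germ cells.

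The promoters of 4 members are shown because they stand for the patterns described below. Acta1, skeletal muscle actin, lay at or near the floor on most arrays, and Tnnc1, Stac and Fkbp1b differed among the groups in 3 unlike ways. Sequences are those of RefSeq for the reference genome GRCm38.p6, not of the mice studied, and run 5′ to 3′ from 250 bases before the gene's start to 50 after it. Capitals mark matches on either strand to the E-box CANNTG, bound by myogenic factors, to the MCAT element CATTCC, bound by TEAD factors, and to the CArG box, bound by serum response factor.
Acta1, chr8:123894726-123895025, minus strand: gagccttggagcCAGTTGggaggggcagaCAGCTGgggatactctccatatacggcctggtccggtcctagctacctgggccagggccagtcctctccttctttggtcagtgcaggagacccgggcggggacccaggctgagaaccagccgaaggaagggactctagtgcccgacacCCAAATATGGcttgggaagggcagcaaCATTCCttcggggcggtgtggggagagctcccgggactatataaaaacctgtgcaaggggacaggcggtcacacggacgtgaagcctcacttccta
Tnnc1, chr14:31208062-31208361, plus strand: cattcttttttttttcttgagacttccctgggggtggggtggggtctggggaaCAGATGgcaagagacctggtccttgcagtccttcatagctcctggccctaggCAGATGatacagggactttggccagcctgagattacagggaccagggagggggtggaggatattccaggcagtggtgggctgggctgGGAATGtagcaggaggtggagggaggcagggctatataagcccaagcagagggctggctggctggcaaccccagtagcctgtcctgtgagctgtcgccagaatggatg
Stac, chr9:111690299-111690598, minus strand: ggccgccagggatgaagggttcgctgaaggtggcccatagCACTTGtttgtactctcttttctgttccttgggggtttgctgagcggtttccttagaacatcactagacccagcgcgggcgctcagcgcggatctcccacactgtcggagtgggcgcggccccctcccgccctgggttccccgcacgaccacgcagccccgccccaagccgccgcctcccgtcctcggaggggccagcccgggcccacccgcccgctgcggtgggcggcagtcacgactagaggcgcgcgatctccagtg
Fkbp1b, chr12:4841524-4841823, minus strand: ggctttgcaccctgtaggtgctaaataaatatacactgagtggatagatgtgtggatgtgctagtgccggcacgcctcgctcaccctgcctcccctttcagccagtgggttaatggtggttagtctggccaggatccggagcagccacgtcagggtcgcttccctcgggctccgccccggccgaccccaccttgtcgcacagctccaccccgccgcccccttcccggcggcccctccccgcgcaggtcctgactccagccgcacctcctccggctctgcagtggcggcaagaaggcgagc
The Acta1 window held 2 E-boxes, 1 MCAT element and 1 CArG box, the Tnnc1 window 2 E-boxes and 1 MCAT element, the Stac window 1 E-box, and the Fkbp1b window none of these. Promoter windows of the same 300 bases were found for 39 of the 46 genes, 48 windows in all. An E-box was present in 41 of these 48 and in 72.3% of all 32851 promoter windows, so its presence says little. An MCAT element was present in 13 of the 48 and in 14.7% of all windows, and a CArG box in 6 of the 48 and in 1.63% of all windows. The 6 genes with a CArG box were Acta1, Actc1, Myh4, Myl3, Myl7 and Myom1. A MEF2 box, searched for in the same way, was present in 2 of the 48 windows, those of Mybpc3 and Ttn, and in 0.557% of all windows. A match is only a run of letters, and was not tested as a binding site.

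Many muscle probe sets were dim. Of the 62 probe sets, 23 were below the array median on every array and 9 were above it on every array. The floor was touched by 18 on at least 1 array. The shares of the whole array for these counts were not computed. On a single array, 4.84% to 16.1% of the members were at the floor, against 7.39% to 13.1% of all probe sets. The array-wide filter asked for the 40th percentile of an array on at least 2 of the 8. It kept 38 of the 62 probe sets, of 34 genes, for testing, and 8874 of all 12422. The other 24 member probe sets were described only. Since a probe set could pass the filter through the 1 group where it was bright, the 38 are not a neutral sample of the list.

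**Figure D1:**
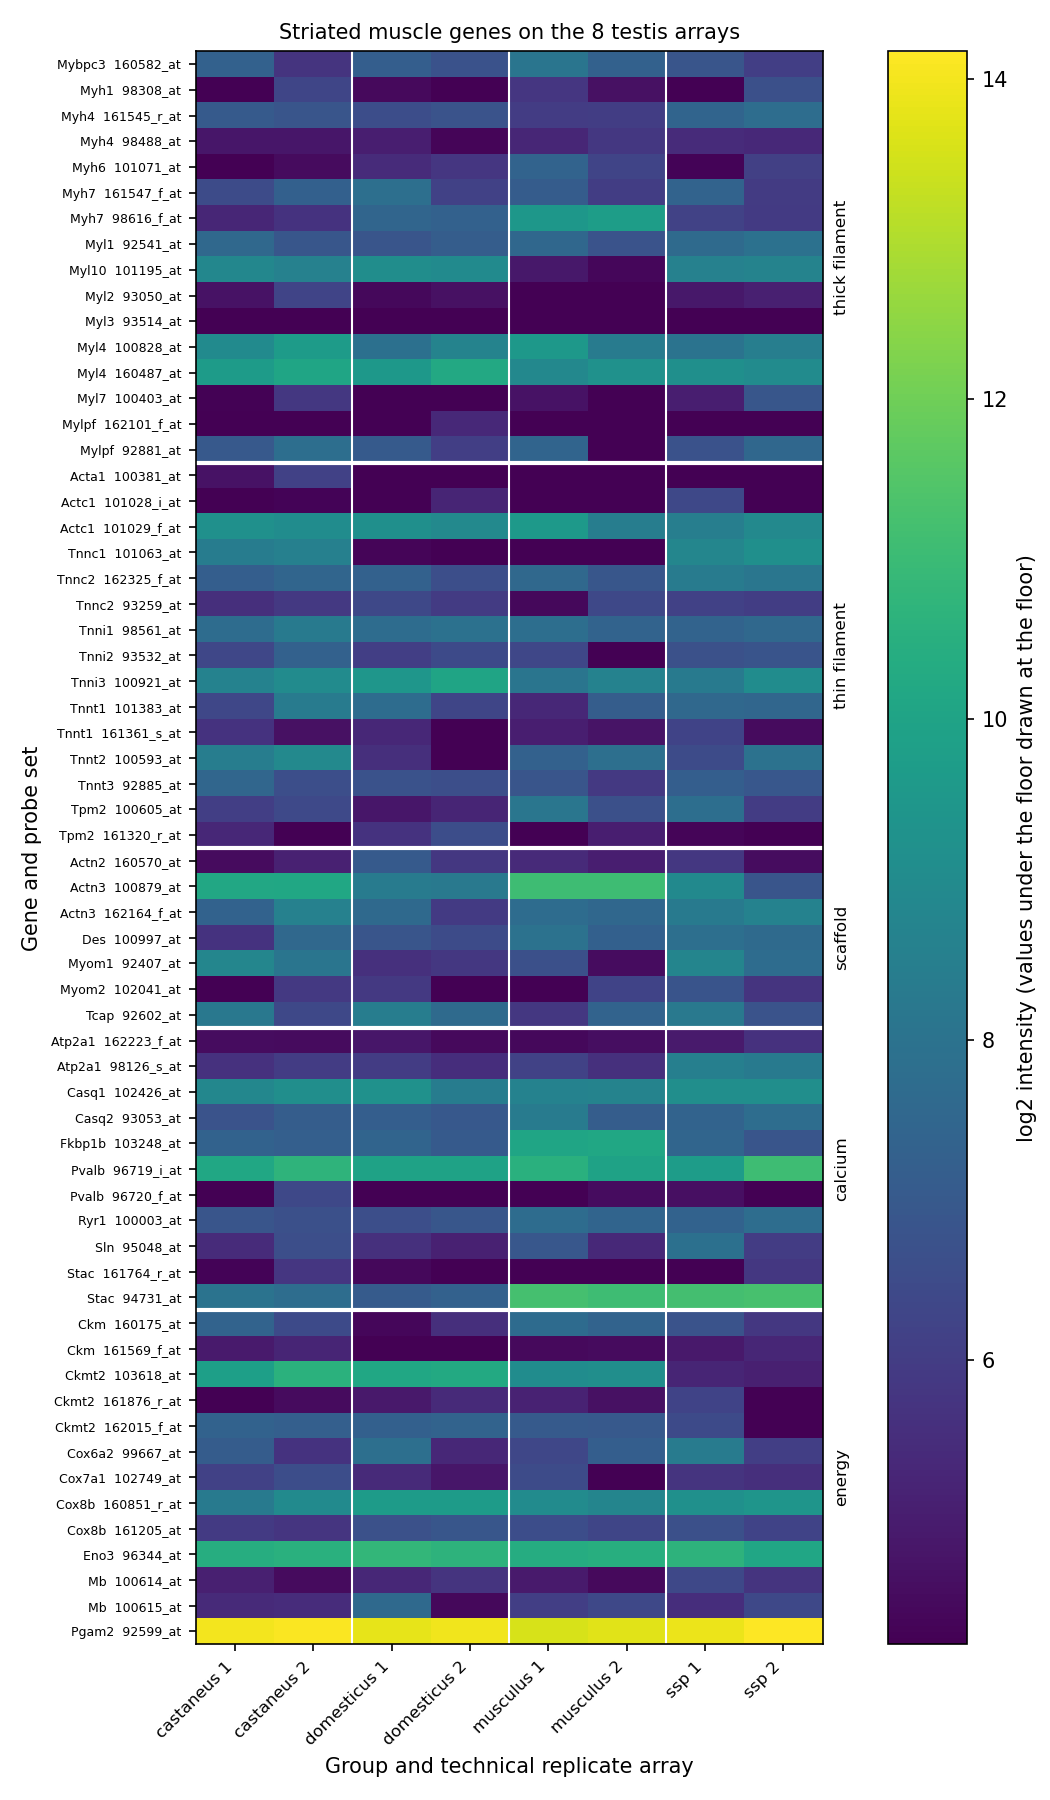
Each row is 1 of the 62 muscle probe sets, ordered by role, and each column 1 of the 8 arrays, with colour giving log2 intensity. Most rows are dark on every array, Pgam2 is bright on every array, and the few rows that change colour do so in different groups.

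Among the 38 tested probe sets, 7 differed among the 4 groups, each of a different gene: Atp2a1, Ckmt2, Fkbp1b, Myh7, Myl10, Stac and Tnnc1. A probe set was called when limma's moderated F test over all 8874 tested probe sets gave an adjusted p (Benjamini-Hochberg) under 0.05 and its highest and lowest group means were 1 or more apart in log2, and 1.76% of all tested probe sets were called. The same 7 were called in at least 1 of the 6 pairs of groups, against 2.33% of all tested. Musculus and ssp differed at 6 of them (0.98% of all tested), castaneus and musculus at 5 (0.947%), domesticus and musculus at 4 (0.744%), domesticus and ssp at 4 (0.687%), castaneus and ssp at 3 (0.349%), and castaneus and domesticus at 1, Tnnc1 (0.676%). As these genes were on the list because they had differed, the counts are not read against those shares. Their adjusted p-values lay between 0.00582 and 0.0354 by limma. The 7 did not share a pattern: Fkbp1b and Myh7 stood apart upward in musculus, Myl10 downward in musculus, Atp2a1 upward and Ckmt2 downward in ssp, while Stac separated ssp and musculus from the others and Tnnc1 separated ssp and castaneus from the others.

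The number of member calls was 3 to 8 when 1 array was left out, while calls over all tested probe sets fell to between 9 and 54, against 156 with all arrays. The member count was 4 without castaneus replicate 1 or 2, without domesticus replicate 1 or without musculus replicate 1, and 3 without musculus replicate 2. It was 5 without domesticus replicate 2, 8 without ssp replicate 1 and 7 without ssp replicate 2. Ckmt2, Stac and Tnnc1 were called in all 18 alternative settings, 8 of which left out 1 array, and Myl10 in 17, the exception being the fit without musculus replicate 2. Myh7 was called in 12, Fkbp1b in 11 and Atp2a1 in 6 of the 18, and Atp2a1 in none of the 8 that left out an array. One of the settings drops the suffixed probe sets called for Myh7 and Atp2a1. The Atp2a1 probe set passed the filter through its ssp arrays only, so it could not be tested when either of them was left out. Where tested, the log2 span was 2.39 to 2.85 for Atp2a1, 2.63 to 3.26 for Fkbp1b and 3.95 to 4.32 for Myh7. It was 4.96 to 5.22 for Ckmt2, 3.94 to 4.16 for Stac and 3.80 to 4.63 for Myl10. The span of Tnnc1, whose low groups lay at or next to the floor, moved most, from 3.73 to 5.28.

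**Figure D2:**
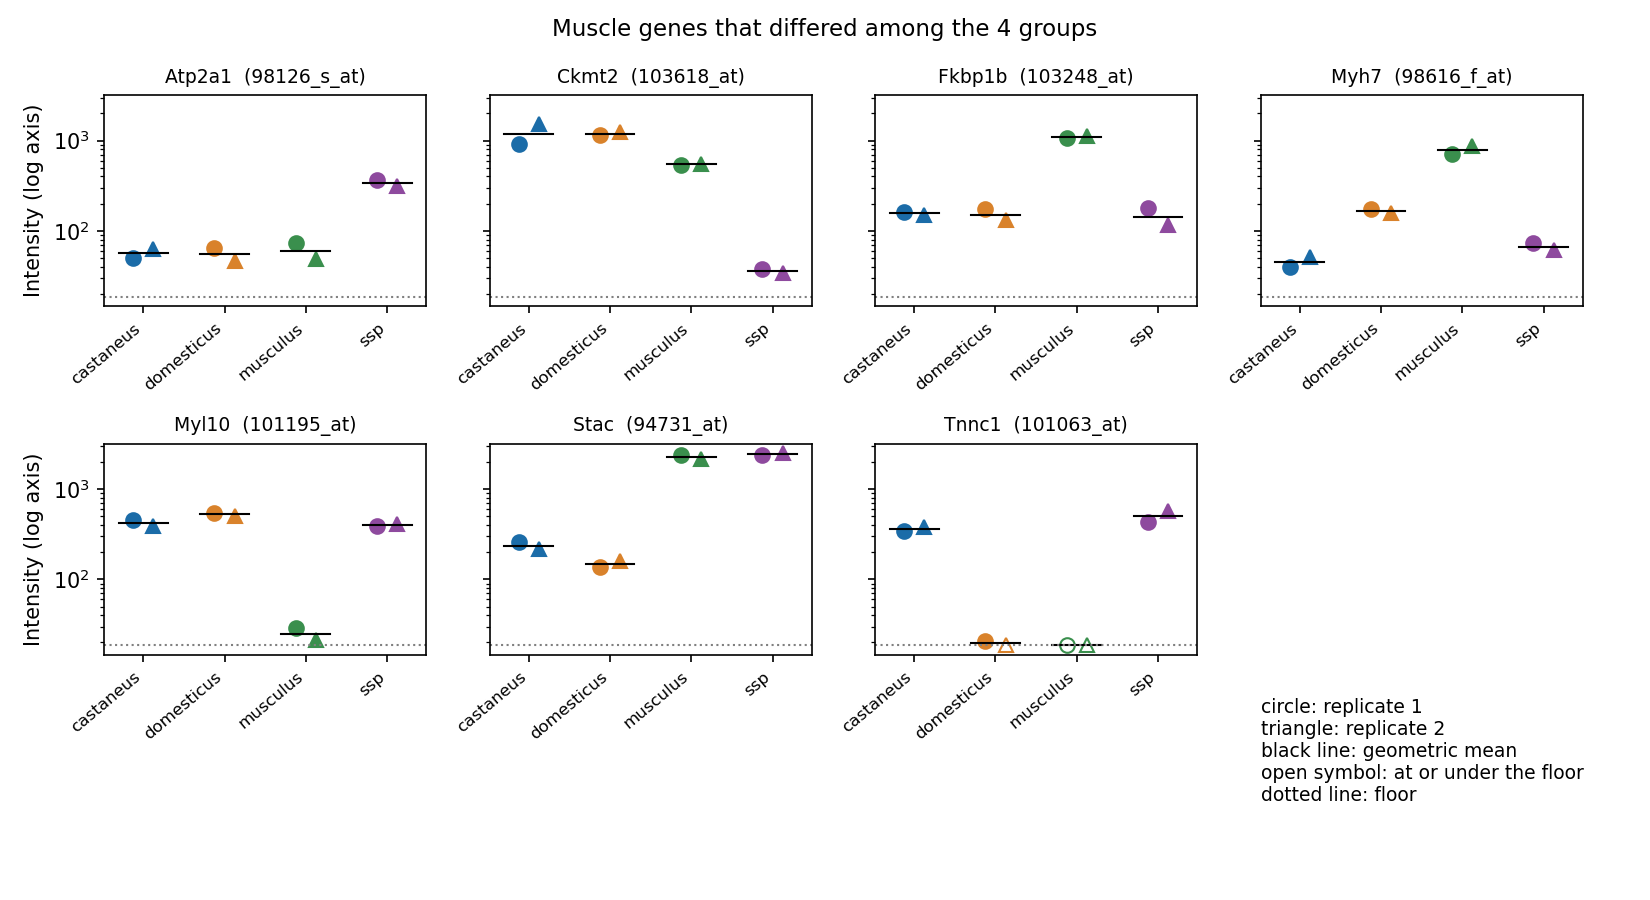
Intensity on a log axis for the 7 called members in each group (alphabetical order), 1 symbol per array, with the geometric mean as a black line and the floor of 18.7 dotted. Replicates lie close together in each panel, and the group that stands apart changes from gene to gene.

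Of the thick filament genes, Myh7 and Myl10 differed among the groups, in opposite directions. Myh7 encodes the myosin heavy chain of slow fibres and the ventricle. Its probe set 98616_f_at read 710 and 878.2 in musculus, against 175.8 and 157.6 in domesticus, 73 and 60.6 in ssp, and 39.6 and 51.1 in castaneus. The musculus arrays lay above all others, and domesticus lay above castaneus and ssp with no overlap. The fold was 4.74 in musculus over domesticus, 11.9 over ssp and 17.6 over castaneus, with a log2 standard error of 0.27. Musculus differed from each other group, while no pair of the others passed the threshold. These probes carry a suffix that, in the manufacturer's naming, marks probes able to match a family of related transcripts, and the second Myh7 probe set, 161547_f_at, went its own way. It read 140 and 65.9 in musculus, against 232.9 and 71.4 in domesticus, 167.3 and 62.4 in ssp, and 89.7 and 155.8 in castaneus, with all groups overlapping.

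Myh6 encodes the heavy chain of the atrium and is the closest relative of Myh7. Its probe set was too dim to be tested and read 168.6 and 77.3 in musculus, against 43.6 and 55.2 in domesticus, 20.2 and 69.5 in ssp, and 18.9 and 22.7 in castaneus. The musculus arrays were again the 2 brightest of the 8, by a small margin over ssp replicate 2. Whether the Myh7 and Myh6 probe sets read separate transcripts was not tested.

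Myl10 encodes a regulatory myosin light chain. It read 546.4 and 510 in domesticus, 452.4 and 388.2 in castaneus and 387.1 and 407.1 in ssp, against 29.2 and 21.3 in musculus. The musculus arrays lay far below the other 6, at 21.2-fold under domesticus, 16.8-fold under castaneus and 15.9-fold under ssp, with a log2 standard error of 0.26. The other groups did not pass the threshold against each other.

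The remaining thick filament genes did not pass or were not tested. Myl4, the light chain of atrium and embryonic muscle, was moderately bright by both of its probe sets. Probe set 160487_at read from 461.1 to 1201.5 over the 8 arrays, median 675.4, and probe set 100828_at from 236.6 to 825.4, median 382.2. Their highest group means were in domesticus and castaneus, so the 2 probe sets did not rank the groups alike. Myh4, the heavy chain of the fastest fibres, read 171.7 and 218.4 in ssp, against 131.7 and 115.3 in castaneus, 95.8 and 109.2 in domesticus, and 62.9 and 65.8 in musculus by probe set 161545_r_at (adjusted p = 0.0962 by limma). No groups overlapped, ssp being highest and musculus lowest. The other Myh4 probe set, 98488_at, lay between 20.5 and 57.2 on all arrays.

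Mylpf, the regulatory light chain of fast fibres, read 127.3 and 226.4 in castaneus, 107.3 and 188.7 in ssp, 130.2 and 66.9 in domesticus and 172.6 and 18.8 in musculus. The 2 musculus arrays of this 1 RNA differed more than any groups did. The other Mylpf probe set was under the floor on 7 of 8 arrays. Myl1, the essential light chain of fast fibres, ranged from 110.5 to 247.4 and was highest in ssp, at 204.5 and 247.4. Mybpc3, cardiac myosin-binding protein C, ranged from 53 to 270.8. Myl2 and Myl7, the regulatory light chains of ventricle and atrium, had medians of 26.1 and 23 over the 8 arrays, and Myh1, another fast heavy chain, 23.95. Myl3, the ventricular and slow essential light chain, was under the floor on all 8 arrays.

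Of the 15 thin filament probe sets 9 were tested and 1, that of Tnnc1, was called, against 1.76% of all tested probe sets. With so few tests of chosen genes, the count is not read against that share. Tnnc1 encodes the troponin C of slow and heart muscle, the subunit that binds calcium. It read 437 and 578.6 in ssp and 340.2 and 376.9 in castaneus, against 20.7 and 7 in domesticus and 15.6 and 8.6 in musculus. The ssp and castaneus arrays were well above the floor, and of the other 4 arrays only domesticus replicate 1 exceeded it. The fold was at least 26.9 in ssp and at least 19.1 in castaneus over musculus, and 25.6 in ssp and 18.2 in castaneus over domesticus, where 1 of 2 arrays was at the floor. The standard error was 0.25 on the log2 scale, and ssp and castaneus did not pass the threshold against each other, nor did domesticus and musculus.

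No other subunit of the slow and cardiac troponin complex was called, and none separated the ssp and castaneus arrays from those of domesticus and musculus. Tnni1, the slow inhibitory subunit, had group means between 181 in ssp and 257 in castaneus, a span of 0.51 on the log2 scale (adjusted p = 0.71 by limma). Tnnt1, the slow tropomyosin-binding subunit, read 192 and 182.5 in ssp, 81.6 and 325.7 in castaneus, 212.5 and 78.7 in domesticus, and 40.7 and 142.4 in musculus by probe set 101383_at. Its groups overlapped, and the 2 castaneus arrays lay further apart than the group means. The Tnnt1 group means of this probe set, like those of Tnnc1, were higher in ssp, at 187, and castaneus, at 163. They were 129 in domesticus and 76.1 in musculus, groups that Tnnc1 could not order at the floor. The other Tnnt1 probe set, too dim to be tested, ranged from 18.8 to 74.9 with overlapping groups. Its means were also highest in ssp, at 41.6, and castaneus, at 36.2, with 29.6 in musculus and 27.4 in domesticus. Tnni3, the cardiac inhibitory subunit, read 694.5 and 1035.1 in domesticus, against 398.3 and 516.6 in castaneus, 314.5 and 530.4 in ssp, and 269.7 and 397.5 in musculus. It was highest in domesticus, where Tnnc1 was next to the floor, and did not pass (adjusted p = 0.32 by limma).

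Tnnt2, the cardiac tropomyosin-binding subunit, had the widest span of any member that was not called, 3.78 on the log2 scale. It read 346.1 and 481.6 in castaneus, 160.7 and 231.8 in musculus and 90.4 and 251.6 in ssp, against 47.1 and 13.9 in domesticus. Both domesticus arrays lay under the other 6, and the adjusted p was 0.107 by limma. It passed in 2 of the 18 alternative settings, at the 60th percentile filter and with a trended and robust variance.

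The fast troponin genes were dim except for 1 probe set of Tnnc2. Tnnt3 read 181.8 and 97.7 in castaneus, 144.8 and 121 in ssp, 107.3 and 98.6 in domesticus and 115.1 and 59.5 in musculus, with overlapping groups. Tnni2 read 81 and 159.6 in castaneus, 103.8 and 113.4 in ssp, 67.5 and 89 in domesticus and 81 and 16.2 in musculus. Tnnc2 had its highest value in ssp by probe set 162325_f_at, at 332.7 and 281.1 against 98.8 to 191.6 elsewhere, and ranged from 21.6 to 83.5 by its other probe set.

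Skeletal muscle actin lay at or near the floor. Acta1 read 26 and 70 in castaneus, against 18.3 and 17.9 in ssp, 16.6 and 9 in domesticus, and 17.8 and 7.9 in musculus. Outside castaneus every array was under the floor. Actc1, cardiac actin, read 343 to 769.5 by probe set 101029_f_at, whose suffix marks probes that can match related actins, and its other probe set was under the floor on 5 of 8 arrays. Tpm2, a tropomyosin of slow and smooth muscle, had probe sets that placed domesticus at opposite ends. By probe set 100605_at the values were 280.4 and 101.8 in musculus, 224.6 and 63.7 in ssp, and 66.9 and 85.1 in castaneus. Both domesticus arrays were lowest there, at 28.1 and 37.8, without a call (adjusted p = 0.332 by limma). Probe set 161320_r_at was too dim to be tested. Its domesticus arrays were the highest, at 50.9 and 95, against 12.6 to 40.8 elsewhere.

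Of the 7 probe sets of the 6 scaffold genes, 5 were tested and none was called, against 1.76% of all tested probe sets. So few tests cannot set these genes apart from the rest of the array. Actn3, the alpha-actinin of fast fibre Z-discs, was the brightest of them and spanned 3.19 on the log2 scale. By probe set 100879_at it read 2164.6 and 2159.1 in musculus and 1163.8 and 1135.1 in castaneus, against 329.9 and 300.4 in domesticus and 495.8 and 113.9 in ssp. The musculus and castaneus arrays agreed closely with their replicates, while the 2 ssp arrays lay far apart (adjusted p = 0.125 by limma). The call was made in the fits without ssp replicate 1 and without ssp replicate 2, and with a trended and robust variance. The other Actn3 probe set, 162164_f_at, was highest in ssp, at 312.8 and 394.7, and read 216 and 186.5 in musculus.

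Myom1, which links thick filaments at the M-band, read 442.8 and 275.2 in castaneus and 426.4 and 215.7 in ssp, against 48.9 and 56.6 in domesticus and 99.4 and 23.8 in musculus. The castaneus and ssp arrays all lay above the domesticus and musculus arrays, the same grouping as for Tnnc1, but Myom1 did not pass (adjusted p = 0.153 by limma). Des, the intermediate filament of all muscle types including smooth muscle, ranged from 51.8 to 253.5, and Tcap, the titin cap, from 57.5 to 343.3, each with overlapping groups. Actn2 and Myom2, the heart and slow Z-disc and fast M-band counterparts, had medians of 38.8 and 55.5 over the 8 arrays.

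Of the calcium genes, Atp2a1, Fkbp1b and Stac were called, each in a different pattern. Atp2a1 encodes the calcium pump of fast fibres. By probe set 98126_s_at it read 361.7 and 312.9 in ssp, against 73.5 and 48.5 in musculus, 49.7 and 63.4 in castaneus, and 64.3 and 46.7 in domesticus. The ssp arrays lay 5.63 to 6.14-fold above the other groups, with a log2 standard error of 0.33, and the other 3 groups overlapped. The other Atp2a1 probe set, 162223_f_at, read 30.8 and 49.4 in ssp and 21.5 to 28.1 elsewhere, highest in ssp as well but too dim to be tested.

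Fkbp1b encodes a small protein that binds the calcium release channel and steadies its closed state. It read 1077.4 and 1129.9 in musculus, against 163.5 and 151.2 in castaneus, 172.4 and 131.5 in domesticus, and 178.9 and 115.2 in ssp. Musculus was 7.02 to 7.69-fold above the others, which overlapped, with a log2 standard error of 0.31. Ryr1, the skeletal muscle release channel that such proteins bind, read 216.7 and 174.5 in musculus and 164.6 and 221.5 in ssp, against 114.7 and 100 in castaneus and 97.2 and 118 in domesticus. All musculus and ssp arrays lay above the others, and the group means spanned 0.86 on the log2 scale (adjusted p = 0.244 by limma).

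Stac encodes an adaptor protein with an SH3 domain whose family binds voltage-gated calcium channels. By probe set 94731_at it read 2362.4 and 2504.8 in ssp and 2413.3 and 2159.6 in musculus, against 256.8 and 217.7 in castaneus and 136.3 and 158.5 in domesticus. The levels fell into a bright and a dim set, with no overlap between castaneus and domesticus either. The fold was 10.3 in ssp and 9.66 in musculus over castaneus, and 16.6 in ssp and 15.5 in musculus over domesticus, with a log2 standard error of 0.24. Ssp and musculus did not pass against each other, nor did castaneus and domesticus. The other Stac probe set was at or under the floor on 4 of 8 arrays, and 2 of these were the musculus arrays.

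Other calcium genes were level or scattered. Casq1, the calcium store protein of fast fibres, was moderately bright at 334.5 to 607.4, with a span of 0.51 on the log2 scale, and Casq2 of slow and heart muscle ranged from 107.7 to 325.1. Pvalb, the soluble calcium buffer of fast fibres, was bright by probe set 96719_i_at, at 852.7 and 2162.5 in ssp, 1147.1 and 1673.1 in castaneus, 1490.3 and 1005.6 in musculus and 992.7 and 997.4 in domesticus. The other Pvalb probe set, 96720_f_at, was under the floor on 5 of 8 arrays, so the 2 probe sets gave unlike readings of the same gene. Sln, a peptide that restrains the calcium pump, ranged from 35 to 238.8.

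Of the energy genes, Ckmt2 was called and had the widest span of all members. Ckmt2 encodes the mitochondrial creatine kinase of striated muscle. By probe set 103618_at it read 1138.7 and 1246.9 in domesticus, 922.9 and 1533.3 in castaneus and 530.2 and 556.9 in musculus, against 38.2 and 34.1 in ssp. The ssp arrays lay far below the other 6, at 33-fold under domesticus and castaneus and 15.1-fold under musculus, with a log2 standard error of 0.31. Probe set 162015_f_at was also lowest in ssp, at 155.2 and 169.3 in domesticus, 164 and 150.3 in castaneus and 133.2 and 129.4 in musculus, against 87.5 and 18.2 in ssp. It did not pass with all arrays and passed without ssp replicate 1. The other Ckmt2 probe set lay between 5.1 and 74.3.

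Ckm, the cytosolic creatine kinase that partners Ckmt2 in muscle, ranked the groups differently. By probe set 160175_at it read 206.1 and 167.7 in musculus, 169.3 and 87 in castaneus, and 110.2 and 57.5 in ssp, against 21 and 47.4 in domesticus. Its domesticus arrays lay below the other 6, and it did not pass (adjusted p = 0.189 by limma). Its other probe set ranged from 17 to 38.7.

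Pgam2 was the brightest member by far. It encodes the muscle form of phosphoglycerate mutase, a glycolytic enzyme that is also known from testis and sperm. It read 16199.6 and 17688.7 in castaneus, 15232 and 18421.1 in ssp and 14413.6 and 15764.3 in domesticus, against 12111.5 and 13387.6 in musculus, and was at or above the 99.3th percentile of every array. The musculus arrays were the lowest, by 0.41 on the log2 scale from castaneus, and the difference did not pass (adjusted p = 0.682 by limma). Eno3, the muscle enolase, was the next brightest and nearly level, at 1119.3 to 1785.8. Cox8b, a muscle isoform of cytochrome c oxidase, was highest in domesticus by both probe sets, at 830.1 and 816 against 316.9 to 683.7, and at 104 and 116.8 against 54.8 to 99.5. Cox6a2 and Cox7a1, further muscle isoforms of that enzyme, and the 2 probe sets of Mb, myoglobin, had medians of 37.55 to 110.2.

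Some skeletal muscle genes were highest in ssp and others were not. Both ssp arrays lay above the other 6 for both Atp2a1 probe sets and for 1 probe set each of Myh4, Myl1, Tnnc2, Mb and Tnnc1, and of these 7 those of Tnnc1 and Atp2a1 98126_s_at were called. Acta1 was above the floor in castaneus alone, the tested Ckm probe set was lowest in domesticus and that of Mylpf in musculus. The groups overlapped for Tnnt3 and Tnni2, and Myl2 and Myl3 were dim or under the floor. Myh7 was called in musculus by 1 of its 2 probe sets, 98616_f_at, while Tnnc1, its partner in slow fibres, was under the floor on both musculus arrays. Tnnc1 was called in ssp and castaneus, where this Myh7 probe set was at 66.5 and 45 intensity units on average. The other Myh7 probe set did not share this contrast, its group means running from 96.1 in musculus to 129 in domesticus.

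**Figure D3:**
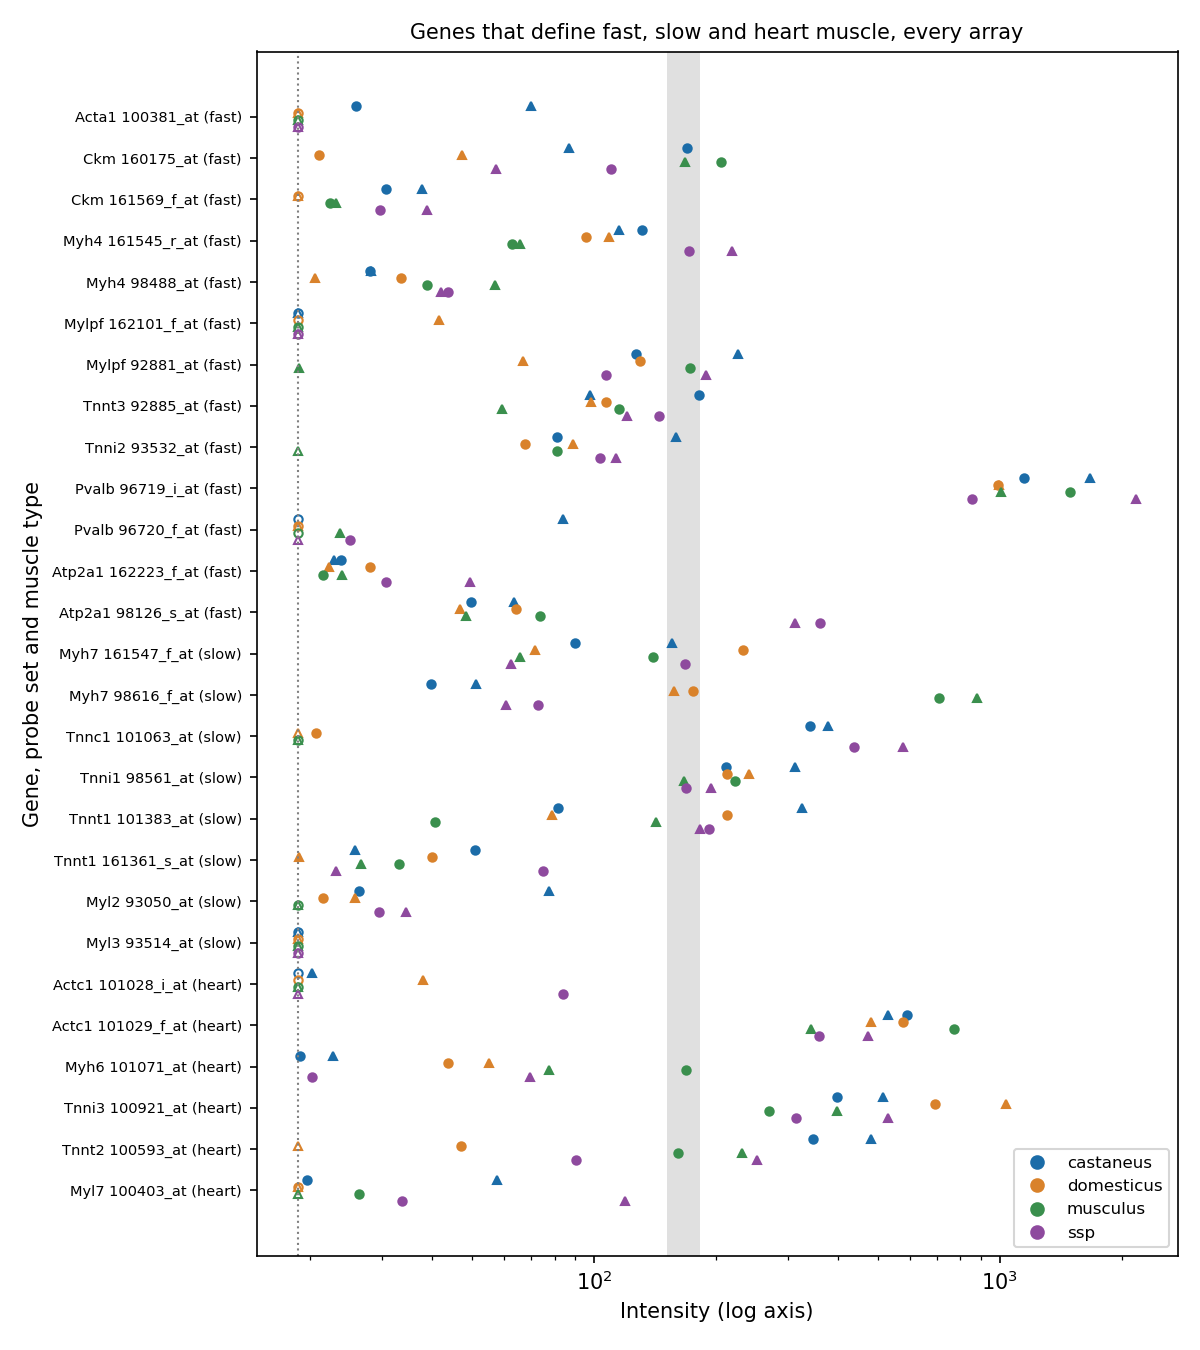
Intensity on a log axis of every probe set of 19 genes that mark fast, slow and heart muscle, with circles for replicate 1, triangles for replicate 2, open symbols at or under the floor and the range of array medians shaded. Acta1 and Myl3 sit at or near the floor, and the colour that lies furthest right changes between genes.

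Over all 62 probe sets the highest group mean was spread over the 4 groups, as it was over the whole array. It was in ssp for 20 probe sets (32.3%, against 31.7% of all 12422), in castaneus for 16 (25.8%, against 22.9%), in domesticus for 14 (22.6%, against 20.7%) and in musculus for 11 (17.7%, against 24%), with Myl3 at the floor throughout. Both arrays of a group lay above the other 6 at 19 of the 62, against 21.4% of all probe sets, and below the other 6 at 13, against 18.4%. The 19 comprised 7 in ssp (6.52% of all probe sets), 6 in domesticus (4.98%), 4 in musculus (5.08%) and 2 in castaneus (4.78%). The 13 comprised 5 in domesticus (4.56%), 4 in musculus (5.31%), 2 in castaneus (4.57%) and 2 in ssp (3.95%).

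**Figure D4:**
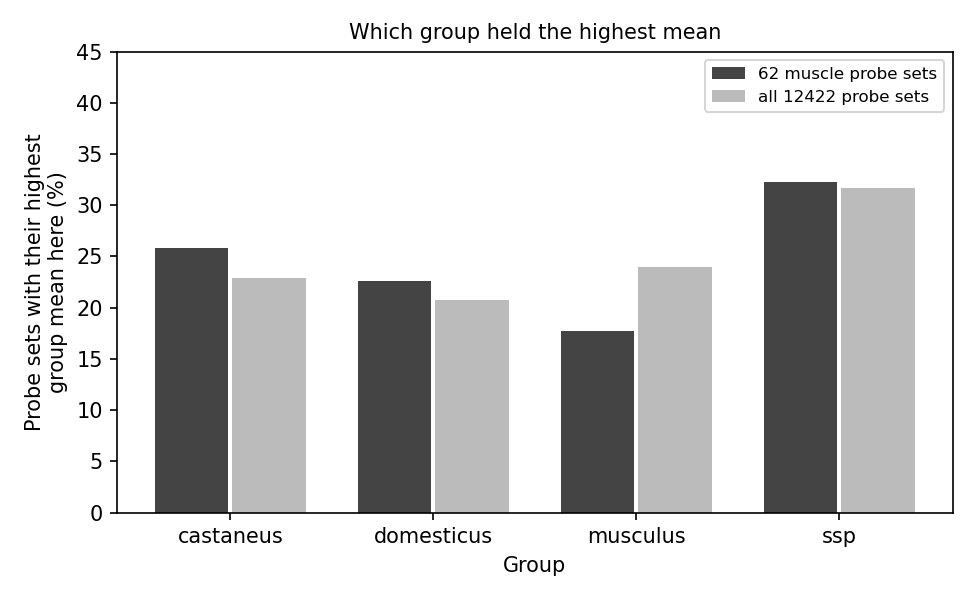
Bars give the percentage of probe sets whose highest group mean lay in each group, for the 62 muscle probe sets and for all 12422. Ssp has the highest bar in both, and musculus has the lowest muscle bar, 17.7% against 24% of all probe sets.

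As a list, the members lay highest in ssp. The median log2 difference between a group and the mean of the other 3 was 0.32 in ssp, 0.06 in castaneus, -0.19 in domesticus and -0.23 in musculus, against 0.08, -0.01, -0.03 and -0.01 over all probe sets. The SD of such a median between replicate arrays was 0.16. Without castaneus replicate 2 the castaneus median was -0.11, without domesticus replicate 1 the domesticus median was -0.40 and without musculus replicate 2 the musculus median was -0.03. The ssp median stayed between 0.19 and 0.38 over the alternatives, lowest with quantile normalization. The spermatid markers were positive at 10 of 12 probe sets in ssp and in castaneus and at 1 of 12 in domesticus and in musculus, with medians of 0.21, 0.16, -0.16 and -0.24 in that order of groups. Their part in the shift of the muscle genes was not tested.

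By role, the ssp median was 0.78 for the 7 scaffold probe sets, 0.50 for the 11 calcium ones, with 9 positive, 0.34 for the thin filament, 0.12 for the thick filament and 0.08 for energy. By fibre type, the fast genes had 17 probe sets of 11 genes. Of these, 14 lay above the average of the other 3 groups in ssp, with a median log2 difference of 0.48, and 2 had a positive difference in domesticus and 3 in musculus. Over all probe sets 56.1% were positive in ssp. The ssp median for these genes ran from 0.34, without musculus replicate 2, to 0.82, without ssp replicate 1. The members typical of slow fibres had an ssp median of 0.24, with 5 of 9 positive, and those typical of heart -0.33, with 4 of 10 positive. The slow median was 0 without ssp replicate 1, without castaneus replicate 1, with quantile normalization and with the floor at the 20th percentile, and the heart median was -0.0445 without ssp replicate 1. The difference between the lists was not tested. Of the 17 fast probe sets, 10 were tested and 1, that of Atp2a1, was called, against 1.76% of all tested probe sets. With so few tests of chosen genes, the count is not read against that share.

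Most fat cell markers had their highest mean in ssp. Of their 10 probe sets, of 8 genes, 9 had a positive ssp difference with a median of 0.86, and their summed intensity was 1966.7 and 2094.8 in ssp, against 946.5 to 1620.3 on the other arrays. Without Adipoq the sums were 1025.7 and 1180.4 in ssp, against 573.1 to 1083.4 on the other arrays, and overlapped, while 8 of the 9 probe sets were positive with a median of 0.60. The exception, named after its values were seen, was a probe set of Lep, the fat hormone leptin, which was lowest in ssp. Of the 10 fat cell probe sets 5 were tested and 1 was called, against 1.76% of all tested probe sets. It was that of Adipoq, the fat hormone adiponectin, which read 941 and 914.4 in ssp. The other values were 536.9 and 720.5 in domesticus, 399 and 519.6 in musculus, and 191.7 and 123.7 in castaneus. Cidec, named after its values were seen, was under the floor on 7 of 8 arrays. The part of fat in the ssp values of muscle genes was not tested. Smooth muscle markers had an ssp median of 0.26, with 7 of 8 positive. None of the 6 tested was called, against 1.76% of all tested probe sets, and so few tests cannot set these genes apart. Their summed intensities were 9212.4 and 7906 in ssp, against 7162.1 to 8467.6 on the other arrays.

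**Figure D5:**
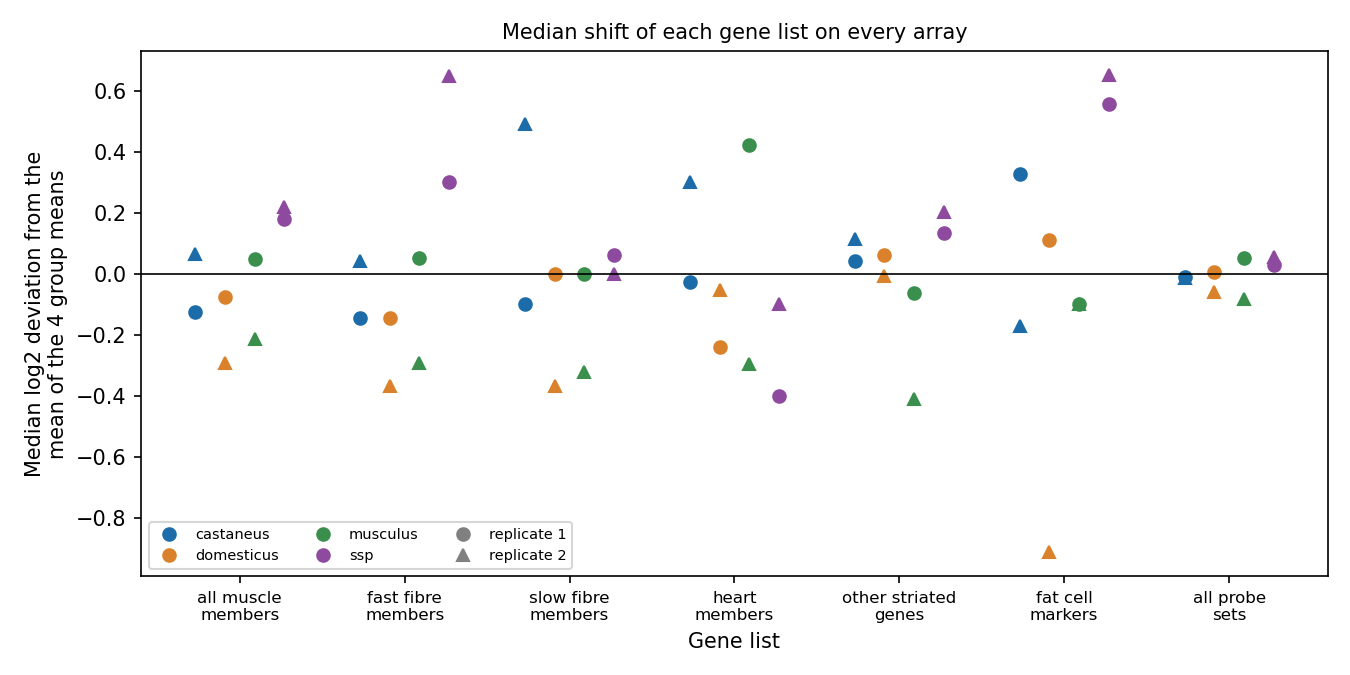
Each symbol is the median log2 deviation of a gene list on 1 array from the mean of the 4 group means, with circles for replicate 1 and triangles for replicate 2. Fast fibre members and fat cell markers lie highest on the ssp arrays, heart members do not, and the 2 symbols of a group lie apart for several lists.

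A further list of 54 striated muscle genes outside the members was read beside them. It had 41 genes on the array with 54 probe sets, of which 37 were tested and 3 called, against 1.76% of all tested probe sets. The 3 were 2 probe sets of Capn3 and 1 of Cav3, and the median ssp difference was 0.24. Capn3 encodes the calpain protease of skeletal muscle. It read 2577.7 and 1795.8 in castaneus and 1052.3 and 1191 in ssp, against 395 and 446.7 in musculus and 211.2 and 397.7 in domesticus by probe set 103272_at, the same bright pair and dim pair of groups as Tnnc1. Its probe set 99813_g_at had castaneus and ssp at 180.3 and 93.5 and at 134.2 and 75, against values under the floor on all musculus and domesticus arrays.

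Cav3 encodes caveolin of the muscle fibre membrane. It read 123.8 and 205.3 in ssp, against 11.4 and 38.3 in castaneus, 6.9 and 6.8 in musculus, and 7.3 and 2.9 in domesticus by probe set 162297_s_at. Its ssp arrays were the brightest, but its other probe set did not pass. None of the Capn3 and Cav3 calls was kept when 1 array was left out. The myogenic regulators, named after their values were seen, had no called probe set: Myod1 had group means of 351 in ssp and 213 to 254 elsewhere, Myog 446 in ssp, 348 in musculus and 185 to 194 in the others. Myf6 was lowest in ssp, at 85.5 in ssp and 161 to 184 elsewhere, and Myf5 was next to the floor.

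Probe sets of the same gene could disagree. Of the 16 genes with several probe sets, 4 had the same highest group by all of them and 12 did not. The share over all genes of the array was not computed, so the count is not read as a trait of muscle genes. Mylpf, Pvalb, Actc1 and Stac each had a probe set at the floor on 4 or more arrays, where the highest group means little. Of the 62 probe sets, 19 carried a suffix, which marks looser probe design, those called for Atp2a1 and Myh7 among them. Replicate arrays of the same RNA differed by more than 2-fold at 18 of the 62 in ssp, 16 in musculus, 15 in castaneus and 12 in domesticus, close to the shares over the array, 26.5%, 21.8%, 21.2% and 20.2%. The largest such gaps were 3.21 on the log2 scale in domesticus and 3.20 in musculus. In castaneus, replicate 2 was the dimmer array at 20 of the 62, against 46.1% of all probe sets.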

How the data were processed

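Intensities on a linear scale, 1 per probe set and array, were used as the authors deposited them. The labels name only an Affymetrix chip; the summary method and scaling are not stated there. Trimmed means, with 2% cut at each end, lay between 495.6 and 496.7, so the deposited arrays were already scaled alike. Symbols from the platform annotation were updated by Entrez number to RefSeq GRCm38.p6: 10833 probe sets had 1 symbol, 396 several and 1193 none.

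After the floor (18.7) and log2, limma 3.58.1 in R 4.3.3 fitted 1 mean per group on 8 arrays (4 residual and 2.34 prior degrees of freedom), tested on simulated data first. Pairs were adjusted within each pair over all 8874 tested probe sets. The members and gene lists were chosen with earlier results of these data known. Values on every array are given for called members, which include the 5 with the widest span. The 5 brightest and fixed genes of fast, slow and heart muscle are given by array or as group means, medians, ranges or counts at the floor. Members of interest beyond these were chosen after their values were seen. Alternatives changed the filter, floor, scaling, variance model, replicate number as a block, probe sets and arrays.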

Additional observations from a re-analysis of the deposited data

How the results depend on the processing

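The count of members differing among the groups was 3 to 8 when 1 array was left out and 5 to 8 under the other settings, and the count called in at least 1 pair was 3 to 8 and 5 to 9. With the replicate number as a block, the member count was 6, Atp2a1 being lost. Replicate differences correlated between groups at 0.0263 to 0.171, so the numbers were not taken to pair the arrays. The count on the other striated list was 0 without a filter, 0 with the replicate block, 6 with a trended and robust variance and 1 without suffixed probe sets. No Capn3 or Cav3 call was kept with 1 array left out. Without a filter, 12 of that list had an unadjusted p under 0.05 by limma, against 1698 of all 12422 probe sets. With the replicate block it was 10, against 1662 of all 8874 tested. Median differences with 1 array left out ran from -0.11 to 0.12 in castaneus, -0.40 to -0.0852 in domesticus, -0.31 to -0.0334 in musculus and 0.25 to 0.38 in ssp. No difference of a called member changed sign. Signals near the floor and 2 technical arrays a group limit every value. Whether the probes match the transcripts of all 4 groups equally well was not tested, so each fold is a difference in probe signal.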

Other observations

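Some genes of the further muscle list had wide group differences without passing the threshold, and are given as values chosen after they were seen. Sgca, the alpha subunit of the sarcoglycan complex at the muscle membrane, had group means of 1135 in castaneus, 397 in ssp and 303 in domesticus, against 49.9 in musculus by probe set 160631_s_at. Its other probe set gave 698 in castaneus, 465 in domesticus and 269 in ssp, against 50 in musculus, so both were lowest in musculus. Fabp3, the fatty acid carrier of heart and muscle, had 1868 in musculus and 1108 in domesticus, against 571 in ssp and 366 in castaneus. Csrp2, a LIM domain protein related to muscle LIM protein and counted on that list although known from smooth muscle, had 594 in domesticus and 517 in castaneus, against 220.4 in musculus and 192 in ssp.

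Markers of other tissues differed in which group was high. Leydig cell markers leaned to musculus, with 9 of 10 probe sets positive and Cyp17a1 and Star called. Of the 8 epididymis probe sets 3 were tested, of the 6 nerve probe sets 4 and of the 12 spermatid probe sets 10. All 7 Sertoli cell probe sets were tested. None of those tested was called, against 1.76% of all tested. With so few tests at that share, the absence of calls says nothing about these tissues. Of the 5 red cell probe sets, Slc4a1 was called, at 174.6 and 116.4 in ssp and 112.5 and 85.1 in castaneus, against 31.3 and 25.1 in musculus and 23.7 and 18.4 in domesticus. Other red cell genes, named after their values were seen, were highest in musculus without being called: Hba-a1, a haemoglobin chain, had a group mean of 15039 in musculus, against 1997 to 2943 elsewhere, and Alas2, the haem synthesis enzyme of red cells, 676 in musculus, against 209 to 289 elsewhere. The summed red cell intensity was 14050.5 and 17768.9 in musculus, against 1647.3 to 5602.1 on the other arrays. Most of the musculus sums came from Hba-a1, at 13327.9 and 16970.5.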
